A study of Homo sapiens with 6 samples.

Results

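The genes described here are 10 genes of the chemokine system in 2 human breast cancer cell lines: the CXC chemokine genes CXCL1, CXCL2, CXCL3, CXCL8 and CXCL16, the CC chemokine genes CCL2 and CCL20, the receptor genes CXCR4 and CCR7, and the atypical receptor gene ACKR3. They were chosen by symbol, and all 10 were found among the 61541 genes of the deposited count table. One line is parental MDA-MB-231, a triple-negative breast cancer line. The other is its subline MDA-MB-231-D3H2LN (MDA231-LN in the following), known as a luciferase-carrying line taken from a metastatic lymph node of a mouse. There were 3 bulk RNA-seq libraries from the parental cells and 3 from MDA231-LN, all grown in high-glucose DMEM with 10% serum and with no treatment named in the labels. The title of the series places the comparison in a study of JAGGED-1 and lymph node metastasis. With 1 line on each side, lymph node origin cannot be told apart from anything else in which the lines differ.

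Chemokines are small secreted proteins that guide moving cells along a concentration gradient by binding G-protein-coupled receptors. CXCL1, CXCL2, CXCL3 and CXCL8 attract neutrophils through CXCR2 and, for CXCL8, CXCR1 as well. CCL2 attracts monocytes through CCR2, and CCL20 attracts CCR6-bearing lymphocytes and dendritic cells. CXCL16 is made as a membrane-bound ligand of CXCR6 and can be shed. CCR7 leads leukocytes into lymph nodes toward CCL19 and CCL21. CXCR4 follows CXCL12, and ACKR3 binds CXCL12 and removes it without the usual G-protein signal. CXCR4 and CCR7 are known from breast cancer research as receptors linked to metastatic homing.

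Between 16461578 and 19171017 fragments were counted per parental library, and between 17661542 and 18882719 per MDA231-LN library. More genes had a count in each MDA231-LN library (19839 to 20024) than in any parental library (17962 to 18196). The part of this in the differences of genes with few counts was not tested. Libraries of the same line differed by more than counting noise (chi-square over its degrees of freedom 3.73 to 8.47), so no 2 of them were 1 library deposited again. Whether a line's 3 libraries were grown as separate cultures is not said in the labels. The p-values therefore measure only the spread between these libraries, which may be technical. All 8 marker genes fixed for this kind of mesenchymal breast cancer line were expressed, with summed levels of 6005 to 6255 CPM (each gene's counts relative to the scaled library size) in the parental libraries and 6933 to 7223 CPM in MDA231-LN; 6 of them rose (FN1 2.52-fold) and 2 fell (MSN 2.5-fold). Of 11 leukocyte markers, 1 passed the filter on low counts (CD14), and their summed level was 1.22 to 2.85 CPM in the parental line and 1.23 to 3.48 CPM in MDA231-LN. CD3D, CD3E, CD2, MS4A1 and TYROBP had 0 counts in every library, and the pan-leukocyte gene PTPRC had 5 to 12 counts per library. Under the filter, CD79A went from 0 to 11 counts in total, ITGAM from 2 to 15, NKG7 from 0 to 4 and LYZ from 3 to 4. Markers of other cell types moved both ways. The lymphatic endothelial gene PROX1 went from 9 to 215 counts, the fibroblast gene LUM from 1 to 47 and the luminal gene ESR1 from 9 to 54. The endothelial genes VWF (37 to 13 counts) and KDR (141 to 82 counts) fell. The fibroblast gene PDGFRB fell 2.31-fold and the luminal gene KRT18 1.26-fold. LYVE1 and PDGFRA had 0 counts throughout, and CDH5 had 0 and 3. Summed, the 7 endothelial markers were at 9.89 to 15.2 and 13.5 to 14.8 CPM, the 6 fibroblast markers at 17.8 to 21.4 and 17.4 to 22.8 CPM and the 7 luminal markers at 1057 to 1147 and 943 to 994 CPM. Their part in the chemokine and receptor differences was not tested. In bulk RNA, fewer cells expressing a gene and less RNA per cell cannot be told apart.

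All 10 genes had low levels in these libraries, and several of them differed between the lines. Relative to the parental line, the ligand genes CXCL1 and CXCL16 and the receptor gene CCR7 rose in MDA231-LN, CXCR4 fell, and CXCL2 and CXCL8 did not pass the test. ACKR3 went from 6 counts in the parental line to 45 in MDA231-LN, and CCL2 from 32 to 2, both below the filter on low counts. A gene is said to have risen or fallen in MDA231-LN where its adjusted p was under 0.05 (edgeR quasi-likelihood test, Benjamini-Hochberg adjustment over 14176 genes). Values are given in the order parental to MDA231-LN, where ± is the SD over 3 libraries beside a CPM or RPKM value and the SE beside a log2 fold change. Of the 6 genes with enough counts to be tested, 3 rose and 1 fell. Among all genes tested, 62.8% were called, 31.6% rising and 31.2% falling, so differences between these lines were common and the 4 calls among 6 genes stand close to that background. The median log2 fold change was 0.83 over the 6 genes and 0.02 over all tested genes, which describes only the genes that passed the filter.

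**Figure D1:**
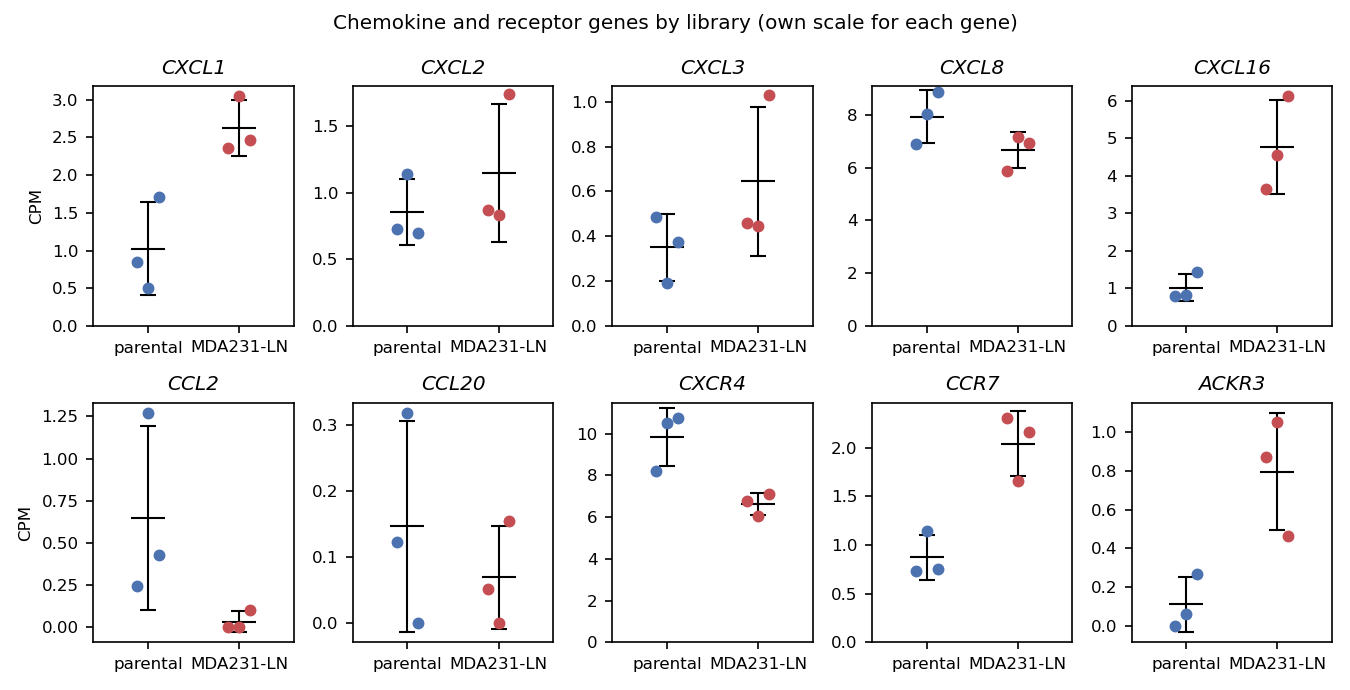
Level of each gene in CPM (y axis, a separate scale for each panel) in the 3 parental libraries (blue) and the 3 MDA231-LN libraries (red); each point is 1 library, the black line is the mean and the bar is ± SD. The MDA231-LN libraries lie above all parental libraries for CXCL1, CXCL16, CCR7 and ACKR3, below them for CXCR4 and CCL2, and overlap with them for CXCL2, CXCL3, CXCL8 and CCL20.

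**Figure D2:**
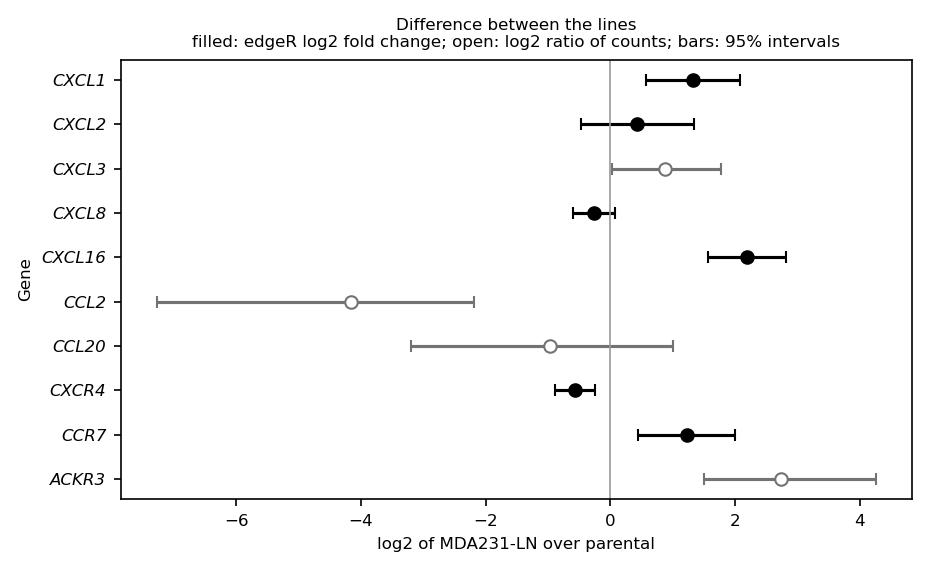
Difference between the lines for each gene on the log2 scale (x axis), with genes on the y axis. Filled points are edgeR log2 fold changes with 95% intervals from their SE for the 6 tested genes, and open points are log2 ratios of counts with 95% counting intervals for the 4 genes with too few counts; the interval spans 0 for CXCL2, CXCL8 and CCL20.

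Without reference to the test, 4 of the 10 genes had all MDA231-LN libraries above all parental libraries and 2 had all of them below. Among the genes of the whole table that passed the filter these shares were 33.8% and 32.8%. ACKR3 and CCL2 did not pass it, and the shares among genes with so few counts were not computed. Levels can be compared between genes only per length. Per kilobase of counted gene span, CXCR4 and CXCL8 were the 2 most abundant of the 10 in the parental line, at 2.59 ± 0.368 and 2.5 ± 0.316 RPKM (CPM per kilobase), which is a difference within their spread. They were followed by CXCL1 at 0.535 ± 0.324 RPKM and CXCL2 at 0.397 ± 0.115 RPKM, which also lay within their spread. In MDA231-LN the order was CXCL8 (2.1 ± 0.212 RPKM), CXCR4 (1.75 ± 0.141 RPKM), CXCL1 (1.37 ± 0.194 RPKM) and CXCL16 (0.745 ± 0.196 RPKM). CXCL16 moved from position 6 to position 4 in the order of levels, and CCL2 from 5 to 9, although CXCL16 lay within its spread of the next gene in each line (CXCL3 in the parental line, CXCL2 in MDA231-LN). Per kilobase of exons CXCL16 went from position 5 to 4 and CCL2 from 7 to 10. Per kilobase of gene span, 7 of the 10 genes were at 0.1 RPKM or above in each line. Per kilobase of annotated exons, CXCR4 and CXCL8 were again the 2 most abundant in both lines. They were at 4.42 ± 0.629 and 3.49 ± 0.442 RPKM in the parental line and 2.98 ± 0.241 and 2.93 ± 0.297 RPKM in MDA231-LN. This measure leaves introns out of the length but not out of the counts. For CXCL3 and CCL2 the annotated exons cover the whole span (2219 and 1986 bases), so their lengths did not change, which limits the exonic order.

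The 4 neutrophil-attracting chemokine genes lie in one cluster on chromosome 4 of GRCh38. CXCL8 is at 73740541 to 73743716, CXCL1 at 73869393 to 73871308, CXCL3 at 74036589 to 74038807 and CXCL2 at 74097040 to 74099196, so that CXCL2 starts 356.5 kb from CXCL8. No base of these 4 genes lies inside another annotated gene. These genes are textbook targets of the transcription factor NF-kappa-B. The 100 bases before each RefSeq start are shown because they carry the NF-kappa-B motif and show how alike the first 3 genes are. The sequences are RefSeq's on GRCh38.p14, from 5′ to 3′ on the strand of the gene, and capitals mark the letters GGGAATTTCC or, in CXCL8, the shorter GGAATTTCC. They cover chr4:73869293-73869392 (plus strand), chr4:74099196-74099295 (minus strand), chr4:74038690-74038789 (minus strand) and chr4:73740469-73740568 (plus strand). RefSeq's starts are not always those of the annotation behind the counts, whose gene coordinates are given above. The RefSeq start is the same for CXCL1, but lies 1 base downstream for CXCL2, 28 bases for CXCL8 and 118 bases for CXCL3, so that the whole CXCL3 stretch and the last 28 bases of the CXCL8 stretch lie inside the counted gene.
CXCL1: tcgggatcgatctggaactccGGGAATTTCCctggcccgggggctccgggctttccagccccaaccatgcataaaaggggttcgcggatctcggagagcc
CXCL2: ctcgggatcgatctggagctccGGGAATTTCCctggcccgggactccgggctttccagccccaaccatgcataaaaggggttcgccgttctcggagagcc
CXCL3: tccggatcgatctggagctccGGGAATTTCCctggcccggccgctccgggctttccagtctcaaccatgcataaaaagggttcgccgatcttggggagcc
CXCL8: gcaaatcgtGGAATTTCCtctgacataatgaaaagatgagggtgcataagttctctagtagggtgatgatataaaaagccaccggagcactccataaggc

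All distances here are from the RefSeq start. Promoter windows of 300 bases (250 before and 50 after it) were at hand for 6 of the 10 genes; those of CXCL16, CCL2, CCR7 and ACKR3 were not used. CXCL1 and CXCL3 were 82.5% identical over their aligned windows, CXCL2 and CXCL3 73.7% and CXCL1 and CXCL2 70.6%, against 43% to 46.2% between any of them and CXCL8. The windows of CXCL1, CXCL2 and CXCL3 share an unbroken run of 23 bases, ctccgggaatttccctggcccgg, which begins 83, 82 and 83 bases before the RefSeq start. The letters GGGAATTTCC were read from the CXCL1 window itself, as GGAATTTCC with the base before it. Their presence in CXCL1 was therefore fixed in advance, and in CXCL2 and CXCL3 they lie within the shared run of 23 bases. Searched on both strands, these letters were found in 0.145% of all 35116 windows of this length, which is no separate support for the match. The contained motif GGAATTTCC was found in 0.461%, and CXCL8 carries it from 91 to 83 bases before its RefSeq start, or 63 to 55 before the start of the counted gene. The AP-1 motif TGACTCA stood in the CXCL8 window from 137 to 131 bases before the RefSeq start and in 4.95% of all windows. TATAAAA stood in the CXCL8 window, in 1 of the 3 windows of CXCR4 and in 4.52% of all windows. These matches are a description of letters, not of binding.

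CXCL1, a growth-regulated neutrophil chemokine, was counted 14, 8 and 32 times in the parental libraries and 46, 55 and 48 times in MDA231-LN. All MDA231-LN libraries were above all parental ones, and parental replicate 3 was the highest of its line. The level went from 1.02 ± 0.621 to 2.62 ± 0.372 CPM, a rise of 2.5-fold with log2 fold change 1.32 ± 0.39 (edgeR quasi-likelihood, Benjamini-Hochberg adjusted p = 0.00428). Without parental replicate 3 the rise was 3.79-fold (edgeR adjusted p = 0.000316), and over all 14 alternatives the adjusted p was 0.000316 to 0.0413.

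CXCL8, the interleukin-8 gene, had the most counts of the 4, with 113, 127 and 166 in parental replicates 1 to 3, against 115, 129 and 135 in those of MDA231-LN. The lines overlapped, at 7.94 ± 1.0 and 6.66 ± 0.675 CPM. The log2 fold change of -0.26 ± 0.17 did not pass (edgeR adjusted p = 0.199), and the 95% interval of the difference ran from 0.663 to 1.06 times the parental level. The sequence-related genes CXCL2 and CXCL3 were less abundant. CXCL2 was counted 12, 18 and 13 times in the parental libraries and 17, 15 and 34 times in MDA231-LN, with overlapping lines. Its level was 0.856 ± 0.247 and 1.15 ± 0.518 CPM, and the log2 fold change of 0.44 ± 0.46 did not pass (edgeR adjusted p = 0.426; 95% interval 0.723 to 2.53 times the parental level). Only MDA231-LN replicate 3 stood above the highest parental library; without it the log2 fold change was -0.00045.

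CXCL3 was counted 8, 3 and 7 times in the parental libraries and 9, 8 and 20 times in MDA231-LN, too few for the filter. MDA231-LN replicate 3 was again the highest library. The ratio of counts over scaled library sizes was 1.83 (exact 95% counting interval 1.02 to 3.42). Fitted without the filter, CXCL3 did not pass (edgeR adjusted p = 0.374). Near-identical copies can lose reads, because those aligning equally well to 2 places were not counted. Of all stretches of 150 bases in their GENCODE 29 transcripts, 0% in CXCL1, 1.83% in CXCL2 and 1.15% in CXCL3 also occur in a transcript of another gene. At 50 bases these shares were 4.81%, 12.5% and 6.01%, in each case with the other 2 genes of this trio.

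CXCL1 took a larger share of the counts of these 4 genes in MDA231-LN, a measure that does not depend on scaling between libraries. It was chosen after its values were seen, restates the counts given above and adds no separate support. The share was 9.52%, 5.13% and 14.7% in parental replicates 1 to 3, against 24.6%, 26.6% and 20.2% in those of MDA231-LN. The lines did not overlap, and the means were 9.78 ± 4.78% and 23.8 ± 3.23% (exact two-sided permutation p = 0.1, the smallest that 3 against 3 libraries can give, and 0.1 adjusted over the 4 ratios computed). CXCL8 made up most of the remaining counts of the 4 genes.

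**Figure D3:**
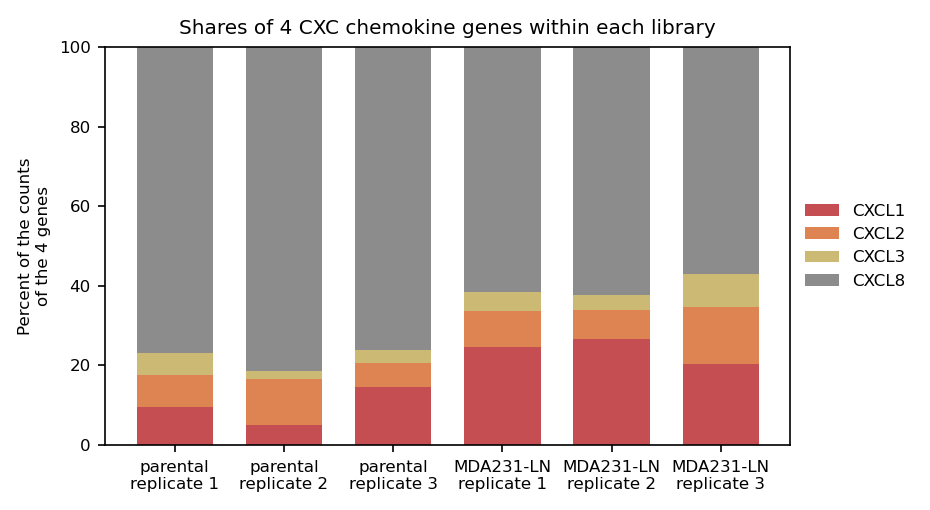
Share of CXCL1, CXCL2, CXCL3 and CXCL8 in the summed counts of these 4 genes (y axis, percent) in each of the 6 libraries (x axis). CXCL1 (red, at the bottom) takes 5.13% to 14.7% in the parental libraries and 20.2% to 26.6% in MDA231-LN.

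CXCL16, the transmembrane ligand of CXCR6, changed by the largest factor among the tested genes of the group. It was counted 13, 13 and 27 times in the parental libraries and 71, 82 and 119 times in MDA231-LN, with every MDA231-LN library above every parental one. The level went from 1.02 ± 0.368 to 4.77 ± 1.25 CPM, a rise of 4.59-fold with log2 fold change 2.2 ± 0.32 (edgeR adjusted p = 1.26e-06). The highest library of each line was replicate 3. The gene lies on chromosome 17 from 4733533 to 4739928, and 6.19% of its exonic bases lie inside a neighbouring gene, where reads were not counted. Per count of CXCL8, there were 0.115, 0.102 and 0.163 counts of CXCL16 in parental replicates 1 to 3. In those of MDA231-LN there were 0.617, 0.636 and 0.882, again without overlap (exact two-sided permutation p = 0.1). This ratio too was chosen after its values were seen and adds no separate support.

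The 2 CC chemokine genes were near the limit of detection. CCL2, the monocyte chemoattractant gene on chromosome 17 from 34255218 to 34257203, was counted 4, 20 and 8 times in the parental libraries and 0, 0 and 2 times in MDA231-LN. The lines did not overlap, and parental replicate 2 held most of the parental counts. In total there were 32 parental counts against 2, a parental to MDA231-LN ratio of 17.9 (exact 95% counting interval 4.58 to 154). Without parental replicate 2 the ratio was 9.75, and without MDA231-LN replicate 3, which leaves no count in that line, CCL2 was at least 7.87-fold lower, against a floor of 3 counts over the 2 libraries left. Fitted without the filter, CCL2 fell (edgeR adjusted p = 0.00173; 18.4% of the 24158 genes in that fit fell), and DESeq2 gave an adjusted p of 0.0083. CCL20, a ligand of CCR6 on chromosome 2 from 227805739 to 227817564, had 2, 5 and 0 parental counts and 1, 0 and 3 in MDA231-LN. The lines overlapped, and the ratio of counts was 0.51 (exact 95% counting interval 0.109 to 2), so a difference was not detectable at this depth.

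Among the 3 receptor genes of the group, CXCR4 had the highest level. The gene lies on chromosome 2 from 136114349 to 136118149 and was counted 135, 166 and 201 times in the parental libraries and 132, 109 and 138 times in MDA231-LN. On scaled library sizes the lines did not overlap, at 9.84 ± 1.4 and 6.63 ± 0.537 CPM. CXCR4 fell 1.48-fold, with log2 fold change -0.57 ± 0.16 (edgeR adjusted p = 0.00393). It did not pass a test against a change of 1.5-fold (edgeR glmTreat, adjusted p = 0.701), while in the other 13 alternatives the adjusted p was at most 0.0258. CCR7, on chromosome 17 from 40553769 to 40565472, went the other way. It was counted 12, 18 and 14 times in the parental libraries and 45, 30 and 42 times in MDA231-LN, and every MDA231-LN library was above every parental one. Its level went from 0.874 ± 0.232 to 2.04 ± 0.336 CPM, a rise of 2.34-fold with log2 fold change 1.23 ± 0.4 (edgeR adjusted p = 0.00884). The test against 1.5-fold was not passed here either (edgeR glmTreat, adjusted p = 0.0719).

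ACKR3, on chromosome 2 from 236567787 to 236582354, had 0, 1 and 5 counts in parental replicates 1 to 3, against 17, 19 and 9 in those of MDA231-LN. The lowest MDA231-LN library was above the highest parental one, parental replicate 3, which held 5 of the 6 parental counts. The ratio of counts was 6.69 (exact 95% counting interval 2.85 to 19.2), and 25.4 without parental replicate 3. ACKR3 missed the filter on low counts. Fitted without the filter it rose (edgeR adjusted p = 0.004), and DESeq2 gave an adjusted p of 0.0146. In the fit without the filter 20.3% of the genes rose, and the median log2 fold change over all genes was 0.15.

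The receptor genes therefore stood in different proportions in the lines. For each count of CXCR4 there were 0.0889, 0.108 and 0.0697 counts of CCR7 in parental replicates 1 to 3, against 0.341, 0.275 and 0.304 in those of MDA231-LN, which is 3.45 times as many on average. For ACKR3 there were 0, 0.00602 and 0.0249 counts per count of CXCR4 in parental replicates 1 to 3, against 0.129, 0.174 and 0.0652 in those of MDA231-LN. Neither ratio overlapped between the lines. This follows from the values above, where CCR7 and ACKR3 were higher and CXCR4 lower in every MDA231-LN library. The ratios were also chosen after these values were seen. Their exact permutation p (0.1, two-sided, the smallest the design allows, and 0.1 adjusted over the 4 ratios) therefore adds no separate support. CXCR4 was the most abundant of the 3 receptor genes in both lines, also per kilobase of exons, at 2.98 ± 0.241 RPKM in MDA231-LN against 0.814 ± 0.134 for CCR7 and 0.352 ± 0.134 for ACKR3.

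Most other ligand and receptor genes had few counts or none. Of 15 other CXC, CX3C and XC ligand genes, 13 had no count in any library and 1 could be tested; of 24 other CC ligand genes, 19 had no count and 3 could be tested. In each of these lists another annotated gene covers over 50% of the exonic bases of 7 members; reads there were not counted, so a lack of counts does not show a lack of expression. The CXCR4 ligand gene CXCL12 and the CCR7 ligand genes CCL19 and CCL21 had 0 counts in all 6 libraries, and CCL21 lies wholly inside another gene. A count of 0 allows a level of up to 0.059 CPM over the parental libraries and 0.0526 CPM over those of MDA231-LN (3 counts). CX3CL1, which encodes the membrane-bound chemokine fractalkine, had 0 parental counts and 21, 30 and 50 in MDA231-LN, and it rose at least 30-fold against a floor of 3 counts over the parental libraries (edgeR adjusted p = 3.87e-07). The eosinophil-attracting chemokine genes CCL26 and CCL24, neighbours on chromosome 7, rose from low levels. CCL26 went from 0.313 ± 0.317 to 1.09 ± 0.291 CPM (edgeR adjusted p = 0.0145) and CCL24 from 0.359 ± 0.0882 to 0.917 ± 0.174 CPM (edgeR adjusted p = 0.03). Both calls were lost with DESeq2 (adjusted p = 0.05035 and 0.105) and without MDA231-LN replicate 2 (edgeR adjusted p = 0.0837 and 0.118), among others.

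Of 21 other receptor genes, 12 had no count, 11 are covered by another gene over more than 50% of their exons and 2 could be tested. CCRL2, an atypical receptor that binds the chemoattractant chemerin, fell 6.49-fold from 46.3 ± 0.514 to 7.12 ± 0.835 CPM (log2 fold change -2.7 ± 0.11; edgeR adjusted p = 2.48e-17). CCR3 was at 0.587 ± 0.449 and 0.797 ± 0.28 CPM and did not pass. CXCR2, through which CXCL1, CXCL2, CXCL3 and CXCL8 signal, had 0 counts in the parental line and 2 in MDA231-LN. Without the filter and with DESeq2, 3 of these receptor genes fell, CCRL2 among them. In the fit without the filter, which takes every gene with a count, 18.4% of 24158 genes fell. CCR2, the CCL2 receptor gene, had 5, 4 and 5 parental counts and 0 in MDA231-LN, at least 5.23-fold lower against a floor of 3 counts over the MDA231-LN libraries (adjusted p = 0.0197 in edgeR without the filter and 0.0215 with DESeq2). CCR10 had 7, 23 and 33 parental counts and 7, 0 and 6 in MDA231-LN, without overlap in CPM (adjusted p = 0.000574 and 0.00943), and 51% of its exonic bases lie inside another gene.

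The machinery around the receptors was expressed in both lines and moved both ways. Of 18 tested signalling genes, 5 rose and 7 fell (median log2 fold change -0.06), beside 31.6% and 31.2% of all tested genes. With upper-quartile scaling 4 of them fell. PIK3CG, the catalytic subunit of the phosphoinositide 3-kinase that acts downstream of G proteins, rose 19.8-fold (1.18 ± 0.519 to 23.2 ± 1.52 CPM). DOCK2, a RAC activator of migrating leukocytes, fell 12.8-fold (21.5 ± 0.521 to 1.66 ± 0.192 CPM). The inhibitory G protein subunit gene GNAI2 (387 ± 24.7 to 245 ± 4.66 CPM) and the small GTPase gene RAC1 (581 ± 26.5 to 375 ± 7.86 CPM) fell by less. Of the other such subunit genes, GNAI3 rose from 152 ± 10.3 to 211 ± 4.855 CPM and GNAI1 did not pass.

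Of 11 tested desensitisation genes, which switch off or internalise receptors, 4 rose and 2 fell (median log2 fold change 0.05). Among all tested genes 31.6% rose and 31.2% fell. ARRB1, which encodes beta-arrestin 1, fell 11.1-fold (60.9 ± 1.83 to 5.47 ± 0.66 CPM), while ARRB2 was at 27.9 ± 2.98 and 29.7 ± 3.36 CPM and did not pass. The receptor kinase genes GRK3 (7.3 ± 0.916 to 26.7 ± 0.635 CPM) and GRK2 (98.7 ± 5.1 to 156 ± 4.61 CPM) rose, as did RGS4, an accelerator of G-protein shutdown (5.14 ± 1.04 to 21.7 ± 1.45 CPM). Another receptor kinase gene, GRK5, fell from 34.1 ± 1.82 to 20.1 ± 1.335 CPM, and GRK6 did not pass.

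Of 8 tested genes that shed, trim, sulfate or present chemokines and their receptors, 3 rose and 5 fell (median log2 fold change -0.48), beside 31.6% and 31.2% of all tested genes. Against 1.5-fold (edgeR glmTreat), 1 rose and 3 fell. ADAM10, a protease that sheds CXCL16, fell 1.47-fold (226 ± 15.6 to 153 ± 0.891 CPM). TPST2, a tyrosine sulfotransferase, fell from 58.2 ± 4.15 to 34.8 ± 1.5 CPM, whereas TPST1 rose from 20.5 ± 0.216 to 31.7 ± 1.2 CPM. The heparan sulfate carrier SDC1 fell 2.3-fold (185 ± 10.1 to 80.5 ± 4.69 CPM), whereas SDC4 rose 1.45-fold (108 ± 8.03 to 156 ± 12.4 CPM).

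NF-kappa-B and interleukin-1 signalling are known to induce the CXCL1 and CXCL8 group. Among 18 tested genes of these pathways, 3 rose and 8 fell (median log2 fold change -0.15). These counts stand beside 31.6% rising and 31.2% falling among all tested genes. They include inhibitors of the pathway, with NFKBIA among the genes that fell and TNFAIP3 among those that rose. With upper-quartile scaling 6 of the 18 rose. IL1B, the interleukin-1 beta gene, rose 7.91-fold, starting low (0.565 ± 0.448 to 4.44 ± 0.759 CPM). NFKBIA, which encodes the NF-kappa-B inhibitor I-kappa-B-alpha and is itself an NF-kappa-B target, fell 3.11-fold (89.5 ± 17.3 to 28.8 ± 2.43 CPM). The receptor accessory gene IL1RAP (30.1 ± 2.95 to 13.7 ± 1.91 CPM) and the receptor-associated kinase gene IRAK2 (22.2 ± 1.53 to 10.7 ± 0.746 CPM) also fell. Of 6 genes acting on chemokine mRNA decay, 2 rose and 3 fell (median log2 fold change -0.1), beside the same shares over all tested genes. KHSRP (962 ± 59.3 to 732 ± 22.4 CPM) and ZFP36L2 (100.1 ± 13.6 to 72 ± 5.48 CPM) fell, and ZC3H12A, the ribonuclease Regnase-1 (7.25 ± 0.851 to 11.9 ± 0.834 CPM), rose. ELAVL1 fell slightly (246 ± 9.1 to 211 ± 4.73 CPM), a call lost with upper-quartile scaling (edgeR adjusted p = 0.0776). Over the 8 lists together 67 genes were tested, 20 rose and 26 fell, beside 31.6% and 31.2% of all tested genes. Their median log2 fold change was 0.01, against 0.02 over all genes.

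**Figure D4:**
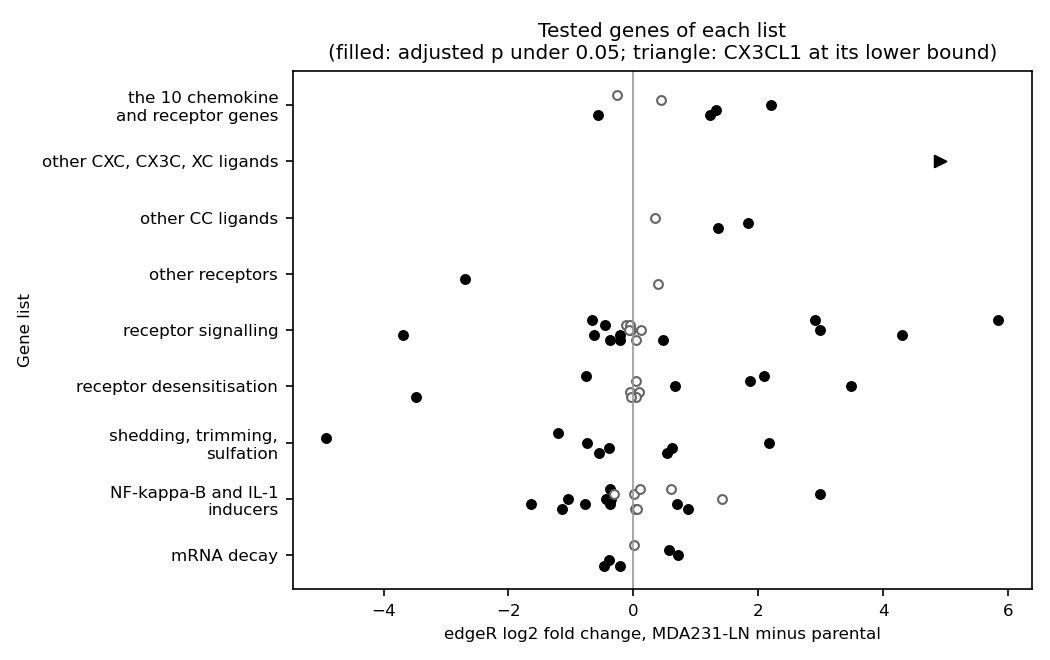
Log2 fold change (x axis, MDA231-LN minus parental) of each tested gene in the 10-gene group and in 8 lists of related genes (y axis); filled points passed an adjusted p under 0.05, and vertical offsets only separate points. CX3CL1 is drawn at its lower bound (at least 30-fold), and every list with 6 or more tested genes holds genes on both sides of 0.

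The neighbourhood of the 4 clustered chemokine genes is given because position was not used to choose them. Within 1 Mb of them 9 other genes were tested, of which 5 rose and 0 fell, with a median log2 fold change of 0.8; without the filter and with DESeq2, where more genes are tested, 8 rose and 0 fell, and at an unadjusted p under 0.05 in edgeR 5 rose and 0 fell. The epidermal growth factor family gene EREG rose 26.8-fold (1.68 ± 0.485 to 44.6 ± 0.829 CPM), PARM1 28.2-fold (0.887 ± 0.183 to 25.1 ± 1.89 CPM) and MTHFD2L, the nearest tested neighbour of CXCL2, 1.74-fold (18.9 ± 0.0593 to 32.9 ± 2.98 CPM). LINC02562 rose from 0.24 ± 0.0731 to 1.77 ± 0.82 CPM. Chromosome 4 as a whole leaned the same way, with 52.2% of its 556 tested genes rising and 8.45% falling and a median log2 fold change of 0.29. CXCL1 therefore rose in a region where most called genes rose, and the part of the chromosome in its difference was not tested. CXCL8, in the same cluster, had a negative log2 fold change.

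**Figure D5:**
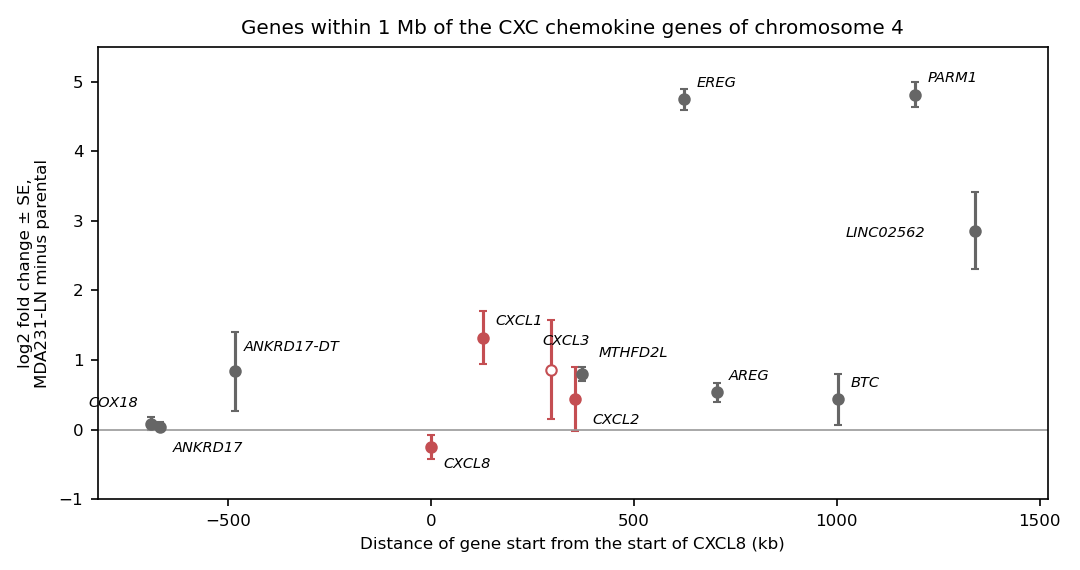
Log2 fold change ± SE (y axis, MDA231-LN minus parental) against the distance of each gene's start from the start of CXCL8 in kb (x axis), for the 4 chemokine genes (red) and the 9 other tested genes within 1 Mb (grey). CXCL3 (open) comes from the fit without the filter; CXCL8 is the 1 gene below 0.

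The other 6 genes lie on chromosomes 2 and 17. These had median log2 fold changes of 0.0 and -0.03 over their 983 and 804 tested genes. On chromosome 2, 32.45% of the tested genes rose and 31.13% fell, and on chromosome 17, 25.25% and 28.48%. Within 1 Mb of CXCL16, 6 of 39 tested neighbours rose, 10 fell and 23 were not called (median -0.05). Those with the smallest adjusted p, KIF1C, MINK1, DERL2 and ENO3, fell by 1.21-fold to 1.63-fold. The part of the region in the 4.59-fold rise of CXCL16 was not tested. Within 1 Mb of CCR7, 12 of 32 rose and 5 fell (median 0.12), or 17 and 3 with upper-quartile scaling. IGFBP4, which encodes a binding protein of insulin-like growth factors, fell (3208 ± 225.9 to 1176 ± 35 CPM), while TNS4 (14.3 ± 2.1 to 56.2 ± 1.64 CPM), IKZF3 (0.741 ± 0.428 to 5.95 ± 0.927 CPM) and KRT10-AS1 (15.8 ± 2.58 to 29.3 ± 4.24 CPM) rose. Within 1 Mb of ACKR3, 3 of 8 rose and 1 fell; the collagen VI gene COL6A3 rose 10.8-fold and RAB17 fell 11.6-fold. Within 1 Mb of CXCR4, 3 of 7 rose and 1 fell, but only 1 rose with DESeq2, without the filter and with the replicate block. For CCL20, 2 of 7 such neighbours rose and 2 fell. Around CCL2, 3 of 7 rose and 0 fell in edgeR (4 and 0 at an unadjusted p under 0.05; 1 and 0 with DESeq2), where SLFN5 rose 3.05-fold.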

How the data were processed

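The deposited file is a table of raw fragment counts per gene. Per the file headers it came from featureCounts 2.0.1 with Ensembl release 105, counting fragments over the whole span of a gene, introns included, without strand, with reads overlapping several genes or aligning to several places not counted. The submitters' processing notes name STAR (version not given in the sources used here) and GRCh38. Fragments from introns can therefore add to low-level genes.

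Symbols were found for 61369 of 61541 identifiers. The edgeR 4.0.16 quasi-likelihood test (R 4.3.3; TMM scaling) was run on the 14176 genes that passed filterByExpr, and p-values were adjusted over all of them by Benjamini-Hochberg. The SE is the absolute log2 fold change over the root of its F. For genes under the filter, counts are given with ratios and exact 95% intervals; these and the floors describe counting error alone, because amplified reads are not independent molecules. RPKM uses TMM-scaled library sizes. The labels name no batch.

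Members and lists were chosen with earlier results of these data known. All 10 members are named. The rule takes, from each list and each 1-Mb neighbourhood, up to 4 called genes with the smallest adjusted p, or up to 2 tested genes of a list without calls; some are not printed. CCR2, CCR3, CCR10, ARRB2, CXCR2, the marker genes, CXCL12, CCL19 and CCL21 were named outside it, after their values were seen. So were GNAI1, GNAI3, GRK5, GRK6, TPST1 and TNFAIP3. Other settings tried were RLE or upper-quartile scaling, no filter or one of at least 1 CPM in 3 libraries, each library left out in turn, a replicate block, DESeq2 1.42.0, limma 3.58.1 (voom), glmTreat against 1.5-fold, and an adjusted p under 0.01. Ratios within libraries and exonic lengths were added after seeing the data. The edgeR step was tested on simulated data. Tables, sequences and plots were made in Python 3.11.15 with numpy 2.4.6, pandas 2.3.3, scipy 1.17.1, biopython 1.88 and matplotlib 3.10.9.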

Additional observations from a re-analysis of the deposited data

How the results depend on the processing

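CXCL1, CXCL16, CXCR4 and CCR7 kept their direction in every alternative run, and their calls in all but the test against 1.5-fold (edgeR glmTreat), where CXCR4 (log2 fold change -0.57, adjusted p = 0.701) and CCR7 (1.23, adjusted p = 0.0719) no longer passed. CXCL2 changed sign without MDA231-LN replicate 3; leaving out each library in turn, its log2 fold change ran from -0.00045 to 0.68. For ACKR3 the ratio of counts ran from 4.53 to 25.4. The number of the 10 genes that fell was 1, and 2 with no filter and with DESeq2, where CCL2 is tested, and 0 against 1.5-fold. Against 1.5-fold, 1935 of all genes rose and 1534 fell, 11 and 10 in the pathway lists, and 16 and 3 in the neighbourhoods of the chemokine and receptor genes, a stricter test by construction. Under upper-quartile scaling the median over all genes was 0.13 in place of 0.02 (log2), and it called 5415 genes higher and 3603 lower, against 4482 and 4422. With the replicate number as a block, the CXCL1 log2 fold change was 1.41 (edgeR adjusted p = 0.00439) and that of CCR7 1.23 (0.0219), with no change of call among the 6 tested genes; 8591 genes passed in all against 8904. The deviations of same-numbered libraries correlated at -0.0526 to 0.0024, and those of differently numbered ones at -0.0437 to 0.0457. The numbers thus showed no pairing by this measure, which cannot exclude a shared culture or preparation date. Depth is 1 limit: CCL2, CCL20, CXCL3 and ACKR3 had 6 to 32 parental counts each and 2 to 45 MDA231-LN counts.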
